A study of Mus musculus with 6 samples.

Results

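The regulators of mitochondrial biogenesis were examined in inguinal white adipose tissue (IngWAT), in control mice with floxed *Hdac3* alleles and in animals that lack *Hdac3* in adipose tissues (H3atKO). They are 10 genes of the 46517 that were counted, found by matching the Ensembl identifiers to their symbols in GENCODE M21, and all 10 passed the filter on low counts (1 cpm, a count scaled to library size, in any sample) and were tested. RNA-seq of poly(A) RNA covered 3 floxed and 3 H3atKO samples, each a pool of RNA from 2 or 3 mice of 1 genotype. All mice are labelled C57Bl6, were 5 to 9 months old and ate chow. Both groups carried the floxed *Hdac3* alleles, and in H3atKO mice these were crossed with an Adipoq-cre transgene from a stock of B6 and FVB origin. The adiponectin promoter drives Cre in adipocytes of white and brown fat, so that other cells of the tissue kept their floxed alleles. The libraries held 23865507 to 35200685 counts on genes, and 3 counts stood for 0.0852 to 0.126 cpm. *Hdac3* itself had 68.9, 80.3 and 65.8 cpm in floxed and 27.4, 21.1 and 12.9 cpm in H3atKO pools, with no overlap and a log2 fold change of -1.83 (limma, adjusted p = 0.0213).

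Mitochondria are built from proteins of 2 genomes. In the nucleus, PGC-1 coactivators dock on the estrogen-related receptors, nuclear respiratory factor 1 and GABP (also called NRF-2), which bind genes of the respiratory chain and of the mitochondrial DNA machinery. In the organelle, the polymerase POLRMT transcribes mitochondrial DNA together with TFAM and TFB2M, and the polymerase POLG copies it. In fat this programme is best known from brown and beige adipocytes, which are rich in mitochondria and burn fuel for heat.

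Several members are themselves textbook targets of NRF1 and GABP. Letters of the binding motifs of 3 factors were therefore searched on both strands of the RefSeq promoter windows (GRCm38.p6, 250 bases before to 50 after the start), which were given for 9 of the 10 members in 13 windows. The NRF1 core GCGCATGC was in 2.71% of all 32851 windows of that length, the ETS motif CCGGAAG of GABP and its relatives in 8.86%, and TCAAGGTCA of the estrogen-related receptors in 0.423%. The matches in members are shown with 30 bases of the gene's strand, 5′ to 3′, with the motif or its reverse complement in capitals. No matches overlapped.
Esrra, NRF1 motif: ccccctgttttGCATGCGCaggccggcccc
Tfb2m, NRF1 motif: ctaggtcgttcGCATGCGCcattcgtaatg
Polrmt, NRF1 motif: agagtatttctGCGCATGCtctcttgccgc
Polrmt, ETS motif: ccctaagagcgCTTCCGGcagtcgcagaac
Gabpa, ETS motif: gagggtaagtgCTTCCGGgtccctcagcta
Tfam, ETS motif: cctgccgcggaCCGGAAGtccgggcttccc
Polg, ETS motif: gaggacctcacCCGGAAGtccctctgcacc

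These stretches lie at chr19:6921824-6921853 (*Esrra*, minus strand), chr1:179546245-179546274 (*Tfb2m*, minus strand), chr10:79746696-79746725 and chr10:79746606-79746635 (*Polrmt*, minus strand), chr16:84835020-84835049 (*Gabpa*, plus strand), chr10:71238073-71238102 (*Tfam*, minus strand) and chr7:79466293-79466322 (*Polg*, minus strand). By GENCODE M21 those of *Esrra* and *Polrmt* are upstream of the gene, those of *Tfam* and *Polg* are exonic, that of *Tfb2m* crosses the annotated 5′ end and that of *Gabpa* runs from an exon into an intron. The first base of the motif stood at -34 from the RefSeq start in *Esrra*, +14 in *Tfb2m*, -133 and -43 in *Polrmt*, -93 in *Gabpa*, -47 in *Tfam* and -38 in *Polg*. The windows of *Esrrg*, *Nrf1* and *Tfb1m* held none of these letters, and TCAAGGTCA was in no member's window. Among the 4 members with an ETS match, *Tfam* and *Gabpa* passed the test as higher in H3atKO, while *Polg* and *Polrmt* had lower levels in every H3atKO pool.

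In IngWAT of H3atKO mice, 4 of the 10 regulators were higher and 0 were lower by limma at an adjusted p under 0.05 over all 14967 genes tested. They are *Esrrg*, *Gabpa*, *Tfam* and *Tfb2m*. Among all genes tested, 9.42% were higher and 7.07% lower. With library sizes alone as the scaling, *Esrrg* kept its call, *Gabpa*, *Tfam* and *Tfb2m* lost theirs, and *Nrf1*, *Polrmt* and *Polg* were lower, where 2.04% of all genes were higher and 37.9% lower. Every H3atKO pool lay above every floxed pool for 5 members, the same 4 and *Tfb1m*, as for 23.1% of all genes, and every H3atKO pool lay below every floxed pool for *Polrmt* and *Polg*, as for 28.6% of all genes. In *Esrra*, *Nrf1* and *Ppargc1b* the groups overlapped. At an unadjusted p under 0.05, 3056 genes were higher and 3506 lower.

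**Figure D1:**
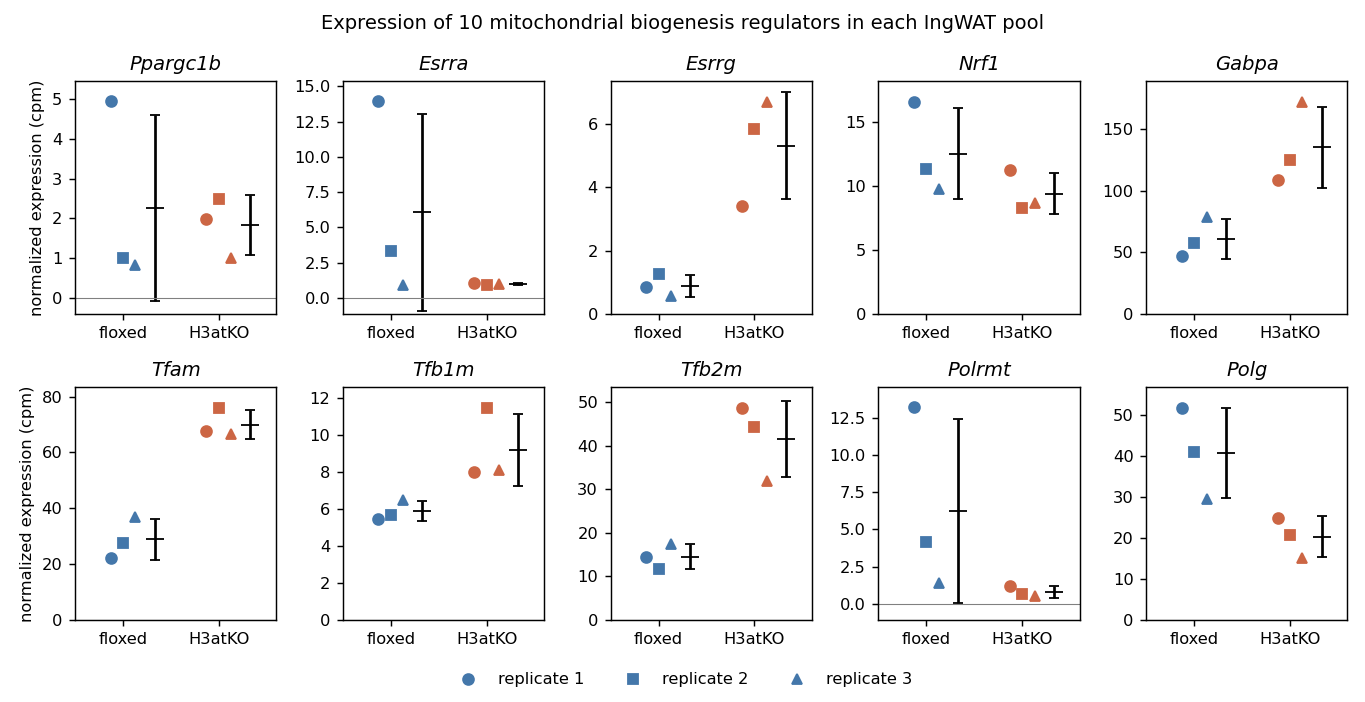
Normalized expression (cpm, TMM-scaled) of the 10 regulators in each IngWAT pool, with 1 panel and 1 linear scale per gene. Blue symbols are floxed and orange symbols H3atKO pools, shapes are replicate numbers and bars are the mean ± SD (n = 3). The H3atKO pools of *Tfam* sit between 66.5 and 75.8 cpm, above the floxed pools, while floxed replicate 1 stands far above the other pools in *Esrra* and *Polrmt*.

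Some limits touch all 10 genes. Across genes, the fold change fell with the GC content of the transcript (Spearman rho -0.735 over 13585 genes, as a description; these genes share the 6 libraries), so the value after a GC correction of each sample on the longest protein-coding transcript is given beside each member. That correction is an alternative added after seeing the data. With it 5.33% of all genes were higher and 3.17% lower, and the part of GC content in the differences cannot be told apart from that of genotype. Same-numbered samples of the 2 genotypes deviated together from their group means, though the labels do not say that the numbers pair the samples. With replicate as a block 24.8% of all genes were higher and 28.7% lower. The blocked value is therefore given beside a member where it changes the call with or without this GC correction. In a bulk sample, fewer cells of a type and less RNA per cell cannot be told apart.

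*Ppargc1b* (ENSMUSG00000033871, chromosome 18) encodes PGC-1β, a coactivator of the estrogen-related receptors. It had 4.96, 1.01 and 0.826 cpm in floxed and 1.98, 2.50 and 1.01 cpm in H3atKO replicates 1 to 3. Floxed replicate 1 was the highest of all 6 and floxed replicate 3 the lowest, so the groups overlapped. The means were 2.27 ± 2.34 and 1.83 ± 0.754 cpm (SD, n = 3 each), and the log2 fold change was 0.12 with a 95% interval of -1.75 to 1.99 (limma, adjusted p = 0.917). On GC-corrected values it was 1.98 (limma, adjusted p = 0.0493), the 1 member called that way, and its transcript is GC-rich at 57.8%. With the block added to that correction it was 1.81 and no longer passed (limma, adjusted p = 0.0541). With edgeR, DESeq2, library sizes alone, other filters or the block its sign turned, from -0.75 to -0.0018. Its better known relative *Ppargc1a*, which encodes PGC-1α, had 6.59, 16.5 and 17.0 cpm in floxed against 28.7, 38.3 and 29.4 cpm in H3atKO pools. Those groups did not overlap, and the log2 fold change of 1.39 (SE 0.41) missed the threshold (limma, adjusted p = 0.0546). *Ppargc1a* is on the list of 17 coregulators and energy sensors given below. On that list 0 genes were called with GC correction, and 0 were higher with library sizes alone.

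*Esrrg* and *Esrra* encode the orphan nuclear receptors ERRγ and ERRα, which act without a known natural hormone and bind the same DNA element. *Esrrg* (ENSMUSG00000026610, chr1:187608791-188214885) had 0.856, 1.25 and 0.559 cpm in floxed and 3.42, 5.86 and 6.70 cpm in H3atKO replicates 1 to 3. All H3atKO pools lay above all floxed pools, and counts were low, at 23 to 52 in floxed and 83 to 115 in H3atKO libraries. The mean rose from 0.889 ± 0.347 to 5.33 ± 1.71 cpm (SD, n = 3 each), with a log2 fold change of 2.56 (95% interval 1.38 to 3.75), the largest rise of the 10 (limma, adjusted p = 0.0269). The GC-corrected log2 fold change was 1.67 (limma, adjusted p = 0.0735), and with the block added to that correction it was 1.66 (limma, adjusted p = 0.0480).

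*Esrra* (ENSMUSG00000024955, chr19:6910977-6921813), the main receptor partner of PGC-1 coactivators, had 14.0, 3.29 and 0.899 cpm in floxed and 1.07, 0.918 and 1.01 cpm in H3atKO replicates 1 to 3. The floxed pools spread 15.6-fold, with floxed replicate 3 below every H3atKO pool, while the H3atKO pools lay within 1.17-fold of each other. The log2 fold change was -1.79 with a 95% interval of -4.52 to 0.94 (limma, adjusted p = 0.262). With the replicate block it was -2.51 (limma, adjusted p = 0.0278), whereas GC correction on the protein-coding transcript turned it to 0.60 (limma, adjusted p = 0.513). The sign did not turn with GC correction on the longest transcript of any type. That gave -1.55 (limma, adjusted p = 0.379), and -2.27 with the block added (limma, adjusted p = 0.0688). The protein-coding transcript of *Esrra* has 61.8% GC, more than 98.4% of the genes tested that have such a value. DESeq2 gave -2.53 (adjusted p = 0.0130), and the difference in response between the 2 receptors was not tested.

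*Nrf1* (ENSMUSG00000058440, chr6:30047988-30153458) encodes nuclear respiratory factor 1, an activator of nuclear genes for the respiratory chain. It had 16.6, 11.3 and 9.75 cpm in floxed and 11.2, 8.26 and 8.66 cpm in H3atKO pools. The groups overlapped at H3atKO replicate 1, and the log2 fold change of -0.39 had a 95% interval of -1.20 to 0.43 (limma, adjusted p = 0.411). After GC correction it was -0.03 (limma, adjusted p = 0.953). *Nrf1* was called lower with library sizes alone, at -1.25 (limma, adjusted p = 0.0406), and with the replicate block together with a GC correction on the longest transcript of any type, at -0.90 (limma, adjusted p = 0.0372).

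*Gabpa* (ENSMUSG00000008976, chr16:84834925-84863779) encodes the DNA-binding subunit of GABP. It had 46.9, 57.2 and 78.4 cpm in floxed and 109, 125 and 172 cpm in H3atKO replicates 1 to 3. No pool crossed between the groups, and replicate 3 was the highest in each. The mean rose from 60.9 ± 16.1 to 135 ± 32.8 cpm (SD, n = 3 each), which is a log2 fold change of 1.16 with a 95% interval of 0.48 to 1.84 (limma, adjusted p = 0.0406). On GC-corrected values the log2 fold change was 0.14 (limma, adjusted p = 0.518), with library sizes alone 0.31 (limma, adjusted p = 0.433) and with no filter on low counts 1.04 (limma, adjusted p = 0.0512). *Gabpa* has the lowest transcript GC of the 10, at 41.4%, below which lie 8.96% of genes. *Gabpb1*, which encodes a partner subunit of the same factor, had a log2 fold change of 0.71 and did not pass (limma, adjusted p = 0.0764). The difference in response between these subunits was not tested.

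*Tfam* (ENSMUSG00000003923, chr10:71225464-71238280) encodes the protein that packs mitochondrial DNA into nucleoids and bends its promoters for transcription. It had 22.2, 27.5 and 36.8 cpm in floxed and 67.6, 75.8 and 66.5 cpm in H3atKO replicates 1 to 3. The groups were well apart, and the H3atKO pools lay within 1.14-fold of each other. The mean rose from 28.8 ± 7.39 to 70.0 ± 5.05 cpm (SD, n = 3 each), which is a log2 fold change of 1.31 with a 95% interval of 0.70 to 1.92 (limma, adjusted p = 0.0269). With GC correction it was 0.72 with an interval of 0.28 to 1.15 (limma, adjusted p = 0.0585), and with the block added 0.71, just past the threshold (limma, adjusted p = 0.04995). With GC correction on the longest transcript of any type it was 0.77, also just past the threshold (limma, adjusted p = 0.0498). With library sizes alone it was 0.46 (limma, adjusted p = 0.262).

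*Tfb2m* (ENSMUSG00000026492, chr1:179528055-179546267) encodes the factor that opens mitochondrial promoters for POLRMT. Its levels were 14.4, 11.8 and 17.4 cpm in floxed and 48.6, 44.5 and 31.9 cpm in H3atKO replicates 1 to 3. H3atKO replicate 3, the lowest of its group, was still above every floxed pool. The mean rose from 14.5 ± 2.82 to 41.7 ± 8.73 cpm (SD, n = 3 each), which is a log2 fold change of 1.53 with a 95% interval of 0.86 to 2.20 (limma, adjusted p = 0.0247). GC correction gave 0.63 with an interval of -0.16 to 1.43 (limma, adjusted p = 0.241), and library sizes alone gave 0.67 (limma, adjusted p = 0.176).

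*Tfb1m* (ENSMUSG00000036983, chr17:3519256-3557781) encodes the related enzyme that methylates the small mitochondrial ribosomal RNA. It had 5.44, 5.67 and 6.49 cpm in floxed and 7.99, 11.4 and 8.09 cpm in H3atKO pools. The groups did not overlap, but the log2 fold change of 0.63 with a 95% interval of -0.14 to 1.40 missed the threshold (limma, adjusted p = 0.174). It was 0.16 after GC correction and -0.21 when library sizes alone were used for scaling, which moved the median log2 fold change of all genes from -0.09 to -0.94.

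*Polrmt* (ENSMUSG00000020329, chr10:79736123-79746581), the mitochondrial RNA polymerase, had 13.2, 4.14 and 1.41 cpm in floxed and 1.24, 0.663 and 0.506 cpm in H3atKO replicates 1 to 3. Raw counts were 30, 13 and 8 in the H3atKO libraries against 602, 172 and 58 in the floxed ones, and the floxed pools spread 9.38-fold. Every H3atKO pool lay below every floxed pool, with a log2 fold change of -2.44 and a 95% interval of -4.99 to 0.12 (limma, adjusted p = 0.128). The replicate block gave -2.87 (limma, adjusted p = 0.00549) and edgeR's quasi-likelihood test -2.94 (adjusted p = 0.0389). On GC-corrected values it was -0.09 (limma, adjusted p = 0.904), at a transcript GC of 60.9%.

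*Polg* (ENSMUSG00000039176, chr7:79446231-79466362) encodes the catalytic subunit of the mitochondrial DNA polymerase. It had 51.7, 41.1 and 29.6 cpm in floxed and 25.0, 20.8 and 15.2 cpm in H3atKO replicates 1 to 3, with no overlap. The log2 fold change was -0.97 with a 95% interval of -1.75 to -0.20 (limma, adjusted p = 0.0715). It passed with the replicate block (limma, adjusted p = 0.00661) and in edgeR's quasi-likelihood test (adjusted p = 0.0491). After GC correction it was -0.25 (limma, adjusted p = 0.382). *Polg2*, the accessory subunit of the same polymerase, had 8.34 ± 1.33 cpm in floxed and 8.38 ± 1.02 cpm in H3atKO pools (SD, n = 3 each), with a log2 fold change of 0.02 (limma, adjusted p = 0.968).

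**Figure D2:**
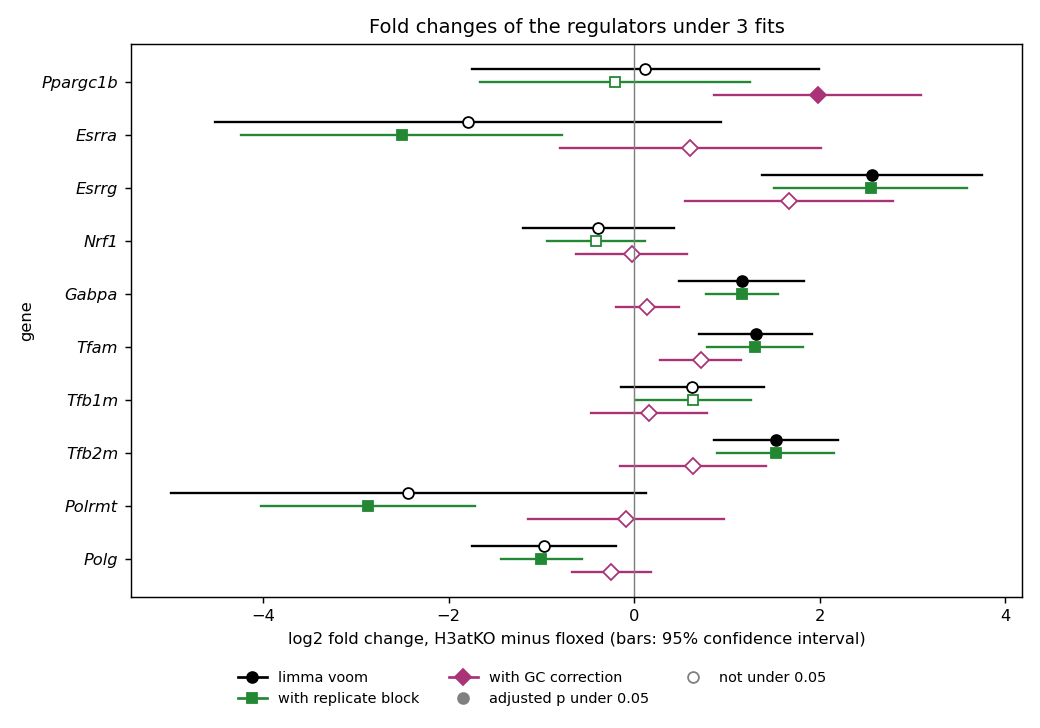
Log2 fold change of each regulator, H3atKO minus floxed (horizontal axis), with 95% confidence intervals, by limma voom (black circles), with the replicate block (green squares) and with GC correction on protein-coding transcripts (purple diamonds). Filled symbols have an adjusted p under 0.05: 4 genes to the right in black, 4 to the right and 3 to the left in green, and *Ppargc1b* alone in purple. Of all genes, 9.42% were higher and 7.07% lower in the first fit. The block called 24.8% and 28.7% of them, and GC correction 5.33% and 3.17%.

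The block therefore left 4 members called higher and brought 3 called lower, *Esrra*, *Polrmt* and *Polg*. Leaving out 1 pool at a time, the 4 called members kept their direction in all 6 fits, and each stayed past the threshold in the fit without floxed replicate 3 alone. Their log2 fold changes then ranged from 2.29 to 2.87 for *Esrrg*, 0.98 to 1.36 for *Gabpa*, 1.13 to 1.51 for *Tfam* and 1.39 to 1.70 for *Tfb2m*. In the same fits calls over all genes ran from 1 higher and 0 lower, without floxed replicate 2, to 2729 higher and 3828 lower, without floxed replicate 3. The fit without floxed replicate 2 had 1926 higher and 2407 lower genes at an unadjusted p under 0.05.

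**Figure D3:**
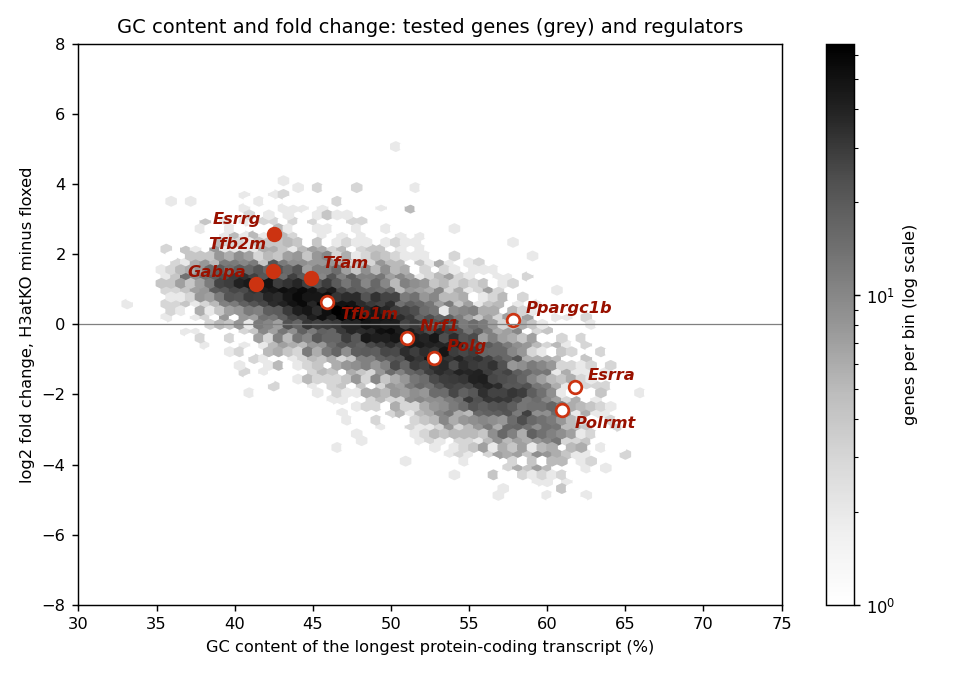
GC content of the longest protein-coding transcript (%, horizontal axis) against log2 fold change, H3atKO minus floxed (vertical axis), for 13585 tested genes (grey bins, number of genes on a log scale) and the 10 regulators (red, filled where adjusted p is under 0.05). The 4 filled genes have 41.4% to 44.9% GC, whereas *Esrra* and *Polrmt* lie at the GC-rich end among genes with low fold changes.

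Per kilobase of exon, the order of the members' levels was led by *Gabpa* in both genotypes. In floxed pools *Gabpa* had 10.7 ± 2.82 cpm per kb, followed by *Tfam* at 6.50 ± 1.67, *Tfb2m* at 5.18 ± 1.01 and *Polg* at 3.80 ± 1.03 cpm per kb (SD, n = 3). Each of these lay within the summed SDs of the next, while the step from *Polg* down to *Tfb1m* was larger than theirs. The next 5, *Tfb1m*, *Esrra*, *Polrmt*, *Nrf1* and *Ppargc1b*, had 1.63 to 0.568 cpm per kb, and within that stretch neighbours did not differ beyond their spread. *Esrrg* was the lowest at 0.143 ± 0.0559 cpm per kb, within the summed SDs of *Ppargc1b*. In H3atKO pools *Gabpa* stood at 23.8 ± 5.77, *Tfam* at 15.8 ± 1.14 and *Tfb2m* at 14.9 ± 3.11 cpm per kb, and only the last pair did not differ beyond its spread. *Polrmt* was then the lowest at 0.171 ± 0.0820 cpm per kb, within the summed SDs of *Esrra* at 0.228 ± 0.0176, and *Esrrg* had 0.858 ± 0.275 cpm per kb. All these levels are without GC correction, and the part of GC content in their order was not tested.

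The members' patterns over the 6 pools were compared by the root mean square difference of log2 cpm after each gene's mean was subtracted, where 0 is an identical pattern. Among the 10, *Gabpa* and *Tfam* were the closest pair at 0.23 log2 units, followed by *Tfam* and *Tfb2m* at 0.27, and *Esrrg* and *Polrmt* were the farthest apart at 2.73. Over 11163 or 11164 protein-coding genes per member, the nearest to *Tfb1m* was *Mrpl42* at 0.03, to *Gabpa* *Pdzd8* at 0.04, to *Tfam* *Grsf1* at 0.04 and to *Polg* *Dcps* at 0.05. The nearest to *Polrmt* was *Cdk2ap2* at 0.09, to *Nrf1* *H2afy* at 0.10, to *Tfb2m* *Vopp1* at 0.11 and to *Ppargc1b* *Chchd10* at 0.15. *Esrrg* and *Esrra* had no gene as near, with *Hsdl2* at 0.26 and *Id3* at 0.28.

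The other nuclear genes of mitochondrial biogenesis were listed in 6 groups of 90 genes, of which 87 were tested. By limma the median log2 fold change over the tested genes was 0.55 against -0.09 over all genes. Of the 87, 21 were higher, 4 lower and 62 did not pass, where 9.42% of all genes were higher and 7.07% lower. With the replicate block 35 were higher and 24 lower, where 24.8% and 28.7% of all genes were. GC correction gave 13 and 0, where 5.33% and 3.17% of all genes were called. Library sizes alone gave 6 and 26, where 2.04% and 37.9% of all genes were called.

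Among 17 coregulators and energy sensors, 2 were higher and 3 lower, with a median log2 fold change of -0.04, and the replicate block gave 6 and 7. *Prkaa2*, a catalytic subunit of the energy sensor AMPK, had 11.4, 17.3 and 33.9 cpm in floxed and 66.8, 108 and 49.6 cpm in H3atKO pools, a log2 fold change of 1.93 (limma, adjusted p = 0.0365). *Nrip1*, a corepressor of nuclear receptors in fat, rose by 1.48 on the log2 scale (limma, adjusted p = 0.0418). *Kat2a*, which encodes the acetyltransferase GCN5 that acts on PGC-1α, fell from 15.9 ± 8.01 to 2.78 ± 1.20 cpm (SD, n = 3 each), which is a log2 fold change of -2.41 (limma, adjusted p = 0.0447). *Prkag1*, a regulatory subunit of AMPK, had a log2 fold change of -1.41 (limma, adjusted p = 0.0497). None of these 4 calls held after GC correction, and that of *Prkaa2* and *Nrip1* did not hold with library sizes alone.

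Of the 10 partner transcription factors tested, of 11 listed, 2 were higher and 1 lower, where 9.42% and 7.07% of all genes were called. These 10 had a median log2 fold change of 0.55. With the block 5 were higher and 3 lower, where 24.8% and 28.7% of all genes were called. *Creb1*, which relays cAMP signals to *Ppargc1a*, rose by 1.38 on the log2 scale (limma, adjusted p = 0.0441), and *Yy1*, a partner of PGC-1α, by 1.19 (limma, adjusted p = 0.0335). *Thra*, a thyroid hormone receptor, fell from 63.3 ± 34.5 to 6.97 ± 2.78 cpm (SD, n = 3 each), which is a log2 fold change of -3.03 (limma, adjusted p = 0.0347). With GC correction *Yy1* stayed past the threshold and *Creb1* and *Thra* did not. With library sizes alone *Thra* stayed past it, and *Yy1* at 0.34 (limma, adjusted p = 0.355) and *Creb1* at 0.53 (limma, adjusted p = 0.295) did not.

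The list of mitochondrial transcription and RNA maturation had 9 of 22 genes higher and 0 lower, where 9.42% and 7.07% of all genes were called. Its median log2 fold change was 0.96. *Trmt10c*, a subunit of mitochondrial RNase P, had 17.9, 21.2 and 32.8 cpm in floxed and 86.5, 91.0 and 111 cpm in H3atKO pools. Its log2 fold change was 2.04 (limma, adjusted p = 0.0136) and 1.11 after GC correction (limma, adjusted p = 0.0151). *Rexo2*, an exonuclease that clears short RNAs, had 50.5 ± 8.33 against 194 ± 31.9 cpm (SD, n = 3 each), which is a log2 fold change of 1.94 (limma, adjusted p = 0.0106). *Tefm*, the elongation factor of POLRMT, had a log2 fold change of 0.71 and did not pass (limma, adjusted p = 0.116). With GC correction 5 of the 22 were higher and 0 lower, where 5.33% and 3.17% of all genes were called. With the replicate block 14 were higher and 3 lower, where 24.8% and 28.7% of all genes were called. Library sizes alone gave 3 and 3, where 2.04% and 37.9% of all genes were called.

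The list of mitochondrial DNA replication and nucleoid genes had 1 of 15 higher and 0 lower, where 9.42% and 7.07% of all genes were called. Its median log2 fold change was -0.34. The 1 called gene was *Clpx*, the unfoldase of a matrix protease, at 1.27 (limma, adjusted p = 0.0249). With library sizes alone *Clpx* was at 0.42 and did not pass (limma, adjusted p = 0.319). *Twnk*, the helicase of the replication fork, had -0.94 (limma, adjusted p = 0.170) and *Ssbp1*, its single-strand binding protein, 0.65 (limma, adjusted p = 0.135). With the block 1 was higher and 7 were lower, where 24.8% and 28.7% of all genes were called. With GC correction 0 were called in either direction. Library sizes alone gave 0 higher and 7 lower, where 2.04% and 37.9% of all genes were called. In the list of nucleotide supply, 1 of 10 tested genes was higher and 0 lower, beside 9.42% and 7.07% of all genes. The median of this list was 0.29. The block gave 3 and 3, beside 24.8% and 28.7% of all genes, and library sizes alone gave 0 and 4. The gene called higher was *Slc25a33*, a pyrimidine nucleotide carrier of the inner membrane. It rose from 4.28 ± 0.852 to 16.5 ± 3.23 cpm (SD, n = 3 each) and by 1.95 on the log2 scale (limma, adjusted p = 0.0219). With library sizes alone *Slc25a33* was at 1.08 and did not pass (limma, adjusted p = 0.0749).

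Among 13 tested textbook targets of NRF and ERR factors, 6 were higher and 0 lower, where 9.42% and 7.07% of all genes were called. These 13 had a median log2 fold change of 0.55. GC correction also gave 6 higher and 0 lower, where 5.33% and 3.17% of all genes were called. The block gave 6 and 1, beside 24.8% and 28.7% of all genes, and library sizes alone 3 and 1, beside 2.04% and 37.9%. *Cycs*, which encodes cytochrome c, had 4.83, 3.75 and 7.95 cpm in floxed and 53.4, 62.4 and 99.9 cpm in H3atKO pools, a log2 fold change of 3.71 (limma, adjusted p = 0.00870). *Cycs* has near-identical pseudogenes, and reads with more than 1 place were given to no gene, so its level is uncertain. *Idh3a*, a subunit of the Krebs cycle enzyme isocitrate dehydrogenase, rose from 162 ± 15.7 to 796 ± 192 cpm (SD, n = 3 each), which is a log2 fold change of 2.27 (limma, adjusted p = 0.00920).

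**Figure D4:**
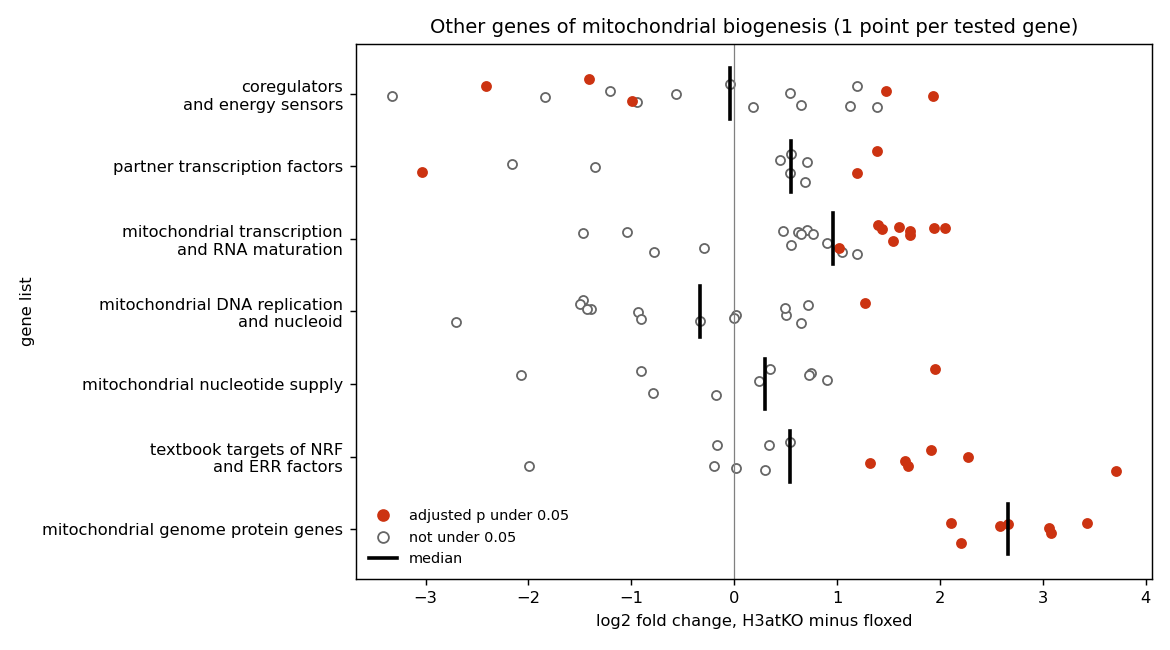
Log2 fold change, H3atKO minus floxed (horizontal axis), of each tested gene in 7 lists of mitochondrial biogenesis genes (rows). Red points have an adjusted p under 0.05 and bars are list medians: 9 of 22 genes of transcription and RNA maturation are red, against 1 of 15 of replication and nucleoid. Over all genes tested, 9.42% were higher and 7.07% lower.

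The transcripts that this machinery makes were higher in H3atKO pools. Genes of the mitochondrial genome took 6.92%, 7.61% and 12.9% of the counts of floxed replicates 1 to 3, against 26.9%, 33.8% and 35.3% of those of the H3atKO pools. The groups did not overlap, at 9.13% ± 3.26 and 32.0% ± 4.49 (SD, n = 3 each), and a two-sided exact permutation test gave p = 0.1, the smallest that 3 against 3 samples allow. Of the 13 mitochondrial protein genes 7 were tested. All 7 were higher, where 9.42% of all genes were, with log2 fold changes of 2.10 to 3.43. The other 6 were at or near 0 in every pool. Reads that aligned to more than 1 place were given to no gene, so the shares and these low levels hold uniquely placed reads only. The part of the left-out reads in them was not tested. *mt-Nd2*, a subunit of complex I, had the largest of the 7 changes. It had 4893, 4460 and 9796 cpm in floxed and 42049, 64982 and 96018 cpm in H3atKO pools. *mt-Nd6*, the 1 protein gene of the opposite strand, had 13.7, 10.2 and 19.1 cpm in floxed and 102, 131 and 121 cpm in H3atKO pools, a log2 fold change of 3.08 (limma, adjusted p = 0.00793). With GC correction 5 of the 7 were higher and 0 lower. Beside these, *Tfam* and *Tfb2m* transcripts were higher, *Polrmt* and *Polg* had lower levels in every H3atKO pool, and what part any member had in the mitochondrial transcripts was not tested. When mitochondrial genes were left out of the fit, the same 4 members were called higher.

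**Figure D5:**
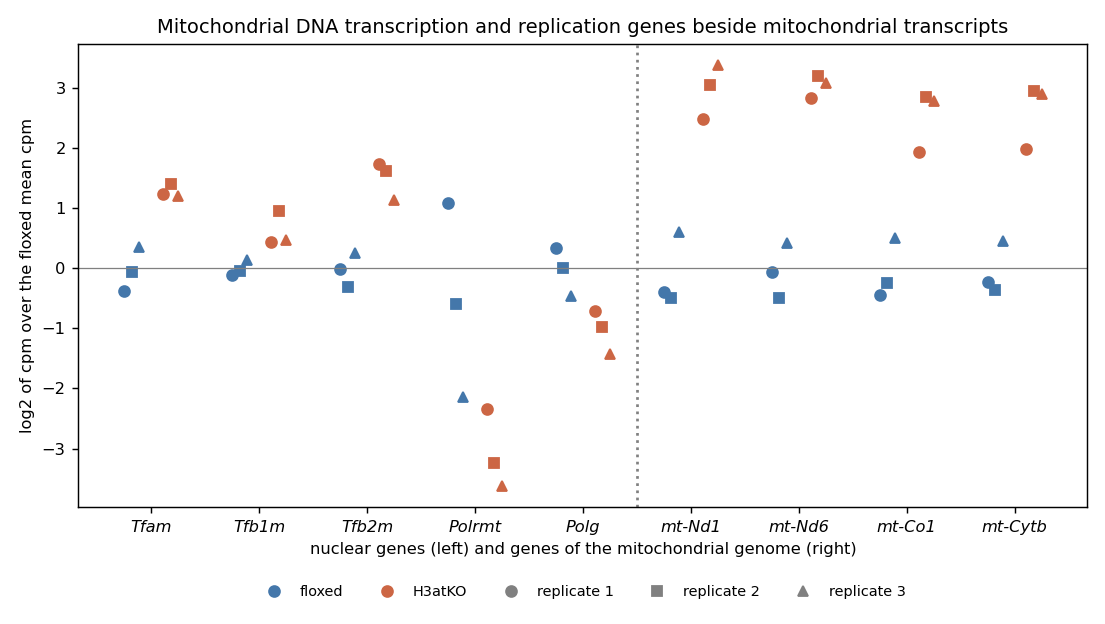
Level of 5 nuclear genes of mitochondrial DNA transcription and replication (left of the dotted line) and 4 genes of the mitochondrial genome (right), as log2 of cpm over the floxed mean of that gene (vertical axis, floxed blue, H3atKO orange, shapes are replicate numbers). *Tfam*, *Tfb1m*, *Tfb2m* and the mitochondrial genes lie above the floxed pools in all 3 H3atKO pools, and *Polrmt* and *Polg* below.

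The labelled tissue held its defining genes: summed cpm of 8 adipocyte markers was 13852 to 32387 in floxed and 15741 to 27042 in H3atKO pools (two-sided exact permutation p = 0.7), with 0 of 8 called and none at 0 in all pools. With library sizes alone the sums did not overlap, at 18847 to 41908 in floxed and 11172 to 18244 cpm in H3atKO pools (exact permutation p = 0.1). *Fabp4*, a fatty acid binding protein, made up most of these sums and had a log2 fold change of 0.05. All other adipocyte markers had negative log2 fold changes, from -3.04 in *Lipe* to -0.24 in *Adipoq*. *Lipe* and *Retn* had lower levels in every H3atKO pool than in any floxed pool. Summed cpm of 6 brown or beige adipocyte markers was 22.2 to 87.5 in floxed and 298 to 1129 in H3atKO pools (exact permutation p = 0.1), with 2 of 6 higher and none at 0 in all pools. The called genes were *Elovl3* and *Dio2*. *Elovl3* made up most of the sums in H3atKO replicates 1 to 3, at 722, 283 and 172 cpm. *Ucp1*, *Cox8b* and *Cox7a1* overlapped between the groups, and *Cidea* did not overlap but was not called. The part of brown or beige adipocytes in the members' differences was not tested. For 5 endothelial markers the sums were 551 to 925 and 373 to 506 cpm (exact permutation p = 0.1), with 2 of 5 lower. Those 2 were *Pecam1* and *Cdh5*, and *Tek* and *Cldn5* did not overlap but were not called. *Kdr* overlapped between the groups, with a log2 fold change of 0.30. Skeletal muscle, which is rich in mitochondria, differed between single pools. Its 10 markers summed to 1253, 760 and 3201 cpm in floxed and 539, 4906 and 17.2 cpm in H3atKO replicates 1 to 3 (exact permutation p = 1), with 0 called. The part of muscle in the members' differences was not tested. For 9 B and T lymphocyte markers the sums were 6.22 to 125 and 21.5 to 396 cpm (exact permutation p = 0.2), with 1 higher. Macrophage markers summed to 371 to 2073 and 335 to 585 cpm (exact permutation p = 0.8), with 1 of 6 lower. Stromal progenitor markers summed to 1461 to 4565 and 1033 to 1556 cpm (exact permutation p = 0.3), with 1 of 6 lower. Mammary epithelium markers were near the floor, at 0.481 to 2.90 and 0 to 4.55 cpm (exact permutation p = 1), with 0 of 5 called.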

How the data were processed

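RNA-seq was performed on 3 floxed and 3 H3atKO pools of IngWAT RNA. The authors prepared stranded poly(A) libraries, trimmed the reads with cutadapt 1.3, filtered those of low complexity, aligned them with STAR 2.4.2a (GRCm38) and summed reads per Ensembl gene by htseq-count 0.6.1. The strand setting of the counting is not given in the sources used here. The deposited values are raw counts per gene and sample, and PCR copies were not marked, so the floor of 3 counts covers counting error only. Tallies of reads given to no gene were kept out of library sizes.

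After the study's methods, the 14967 genes that reached 1 cpm in any sample were scaled by TMM (edgeR 4.0.16) and tested with limma 3.58.1 voom in R 4.3.3, with Benjamini-Hochberg adjustment over all of them and a threshold of 0.05. Positions, exon lengths and GC content came from GENCODE M21, which matched 46005 of 46517 identifiers. Nothing in the labels says more of the replicates than that they are separate pools of mice, so p-values measure the spread between these pools.

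The members and gene lists were chosen with earlier results of these data known. Named genes are the 10 members, *Hdac3*, *Ppargc1a* and, per list and direction, the 2 called genes with the largest change that averaged at least 1 log2 cpm and whose groups did not overlap. *Gabpb1*, *Polg2*, *Tefm*, *Twnk* and *Ssbp1*, from the lists, were named for their roles, after their values were seen. Marker sums and the mitochondrial share were compared by two-sided exact permutation tests.

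Same-numbered samples of the 2 genotypes deviated together from their group means (Pearson r across genes 0.510, 0.389 and 0.264 for replicates 1 to 3). The r between differently numbered samples is not given here. The replicate block treats the numbers as pairs, which the labels do not state, so it is an alternative only. Alternatives were edgeR's quasi-likelihood test, DESeq2 1.42.0, library sizes alone, RLE factors, a minimum of 10 counts per sample or no filter, quality weights on samples, the replicate block, a GC correction (robust loess, span 0.3) with and without it, no mitochondrial genome genes, a threshold of 0.1 and each sample left out. The GC correction on protein-coding transcripts was added after seeing that the longest *Esrra* transcript is a retained intron.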

Additional observations from a re-analysis of the deposited data

Results flagged for a closer look

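Reads that aligned to more than 1 place were kept out of the gene counts, and they differed between the genotypes. They made up 44.7% ± 0.849 (SD, n = 3, range 43.8% to 45.5%) of the counted and tallied alignments in H3atKO and 31.0% ± 3.68 (SD, n = 3, range 28.3% to 35.2%) in floxed samples. This was looked at again because the level in data that no comparison uses lay above that of the control samples. A read can be tallied at each of its places, and members' counts hold none of these reads.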

How the results depend on the processing

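Against 4 members called higher and 0 lower, library sizes alone gave 1 and 3, edgeR's quasi-likelihood test 4 and 2, DESeq2 4 and 3, sample quality weights 5 and 2, and a threshold of 0.1 4 and 1. Of all genes, library sizes alone called 2.04% higher and 37.9% lower, edgeR 12.8% and 18.4%, DESeq2 19.6% and 23.2%, and quality weights 26.7% and 29.7%. The replicate block gave 4 and 3, the GC correction 2 and 0, and both together 3 and 1. On protein-coding transcripts the GC correction gave 1 and 0, and 2 and 0 with the block. The threshold of 0.1 called 18.7% of all genes higher and 21.3% lower, and the block 24.8% and 28.7%. The GC correction called 5.39% and 3.11% of all genes, and 13% and 9.87% with the block. On protein-coding transcripts it called 5.33% and 3.17%, and 12.1% and 8.59% with the block. Leaving out 1 sample gave 0 to 4 higher and 0 to 3 lower members. Against 21 nuclear pathway genes higher and 4 lower, edgeR gave 11 lower, DESeq2 16 lower, library sizes alone 6 and 26, RLE factors 2 lower, at least 10 counts 9 lower, quality weights 40 and 22, the block 35 and 24, the GC correction 0 lower, GC correction on protein-coding transcripts 13 and 0, the same with the block 2 lower, and a threshold of 0.1 13 lower. Leaving out 1 sample gave 0 to 33 higher and 0 to 21 lower. *Esrra* turned to 0.60 with GC correction on protein-coding transcripts and 0.16 with the block added. *Tfb1m* turned to -0.21 with library sizes alone, with GC correction, and with that and the block. *Ppargc1b* turned to -0.31 in edgeR, -0.23 in DESeq2, -0.75 with library sizes alone, -0.0018 with no filter, -0.018 with at least 10 counts and -0.21 with the block, and leaving out 1 sample gave -0.35 to 0.94. *Polrmt* did not reach 10 counts in every sample and has no value there. The cause of these changes was not tested. Counts were lowest for *Esrrg*, *Polrmt*, *Esrra* and *Ppargc1b*, which had under 120 in every H3atKO library.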

Other observations

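Exons of 4 members share bases with a protein-coding gene on the opposite strand. Reads that fell on more than 1 gene were tallied as ambiguous and given to no gene. They were 0.308% to 0.884% of the counted and tallied alignments. Without a stated strand setting, it is not known whether reads on the shared bases were among them. *Polg* shares 921 exon bases with *Fanci*, *Gabpa* 397 with *Atp5j*, *Tfb1m* 142 with *Tiam2* and *Esrra* 73 with *Trmt112*. *Atp5j*, a subunit of the mitochondrial ATP synthase, had 101, 127 and 153 cpm in floxed and 216, 379 and 281 cpm in H3atKO pools, a log2 fold change of 1.18 (limma, adjusted p = 0.0390), beside 1.16 for *Gabpa*. *Fanci*, a DNA repair gene, had 0.565 ± 0.163 and 1.36 ± 0.684 cpm (SD, n = 3 each), well under the level of *Polg*, and a log2 fold change of 1.24 (limma, adjusted p = 0.139). *Tiam2* had a log2 fold change of -1.39 (limma, adjusted p = 0.0952) and *Trmt112* of -2.27 (limma, adjusted p = 0.214). The part of these neighbours in the members' values was not tested.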
